A study of Mus musculus with 46 samples.

Results

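Mammary tumors of MMTV-c-Myc mice were set against normal mammary gland of the same strain, on arrays that measured mRNA. MMTV-c-Myc mice carry a c-Myc transgene under the long terminal repeat of mouse mammary tumor virus (MMTV), a promoter that drives the transgene mainly in mammary epithelial cells, more strongly once milk is made, but not there alone, since salivary and lymphoid tissue can express it too. The arrays were chosen by their titles and included 4 MMTV-c-Myc tumors and 5 normal glands, all female FVB, which makes 9 of the 46 arrays of the series. The 4 tumors came from individual mice and the glands from FVB mice late in pregnancy, a stage used because the gland is then rich in epithelium. Where it helped to see what was particular to the c-Myc tumors, they were also compared with the 20 tumors of 4 other models with the same promoter and strain, MMTV-H-Ras (5), MMTV-Her2/neu (5), MMTV-PymT (6) and MMTV-Wnt1 (4). The ages of the mice are not given in the sources used. A tumor and a late-pregnant gland differ in their cells as well as in the transgene, and in bulk RNA fewer cells of a type and less RNA per cell cannot be told apart.

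Myc is a transcription factor that pairs with Max and binds the E-box, the palindrome CACGTG, near the start of many genes. It is known above all for raising the expression of genes that build ribosomes and that make nucleotides and polyamines, and for driving cells into S phase. Its partner Max also pairs with Mnt, Mxi1 and the Mxd proteins, which repress the same sites, while the related factors Mlx, Mlxip and Mlxipl form a parallel branch of the network that responds to glucose. In the gland of late pregnancy the epithelium instead turns to secretion, with casein and whey protein genes under the control of prolactin and Stat5.

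Values are log2 GC-RMA values, on which unexpressed genes lie near 2, so that folds from such low levels are set in part by this floor. A gene was called when its adjusted p in limma was under 0.05 (Benjamini-Hochberg over 9329 genes), and a difference is the mean of the c-Myc tumors minus the mean of the other group on the log2 scale. The 4 tumors correlated with each other at r = 0.865 to 0.917 and the 5 glands at 0.908 to 0.959. C-Myc tumor 2 stood nearer to the glands (r = 0.815 to 0.869) than c-Myc tumors 1, 3 and 4 did (0.735 to 0.814), and normal gland 2 was low in skeletal muscle genes. Many, but not all, of the list counts and genes that these arrays set apart are therefore also given without them. Against normal gland, 1598 genes (17.1%) were higher in c-Myc tumors and 1363 (14.6%) lower, of which 1355 (14.5%) and 1216 (13.0%) differed by at least 2-fold. The shares of 17.1% and 14.6% are the background for each count of list members called against gland. In 1308 genes (14.02%) all 4 tumors lay above all 5 glands, and in 1097 (11.76%) below them, which is the background for each statement that these groups did not overlap. Against the other MMTV tumors, 570 genes (6.11%) were higher and 654 (7.01%) lower, with 423 (4.53%) and 478 (5.12%) at 2-fold or more, and 559 higher against 372 lower when each array was centred on its median. That centring moved the median difference of all genes from -0.02 to 0.10.

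Myc itself was higher in the c-Myc tumors than in any other group. It measured 13.10, 13.57, 13.41 and 13.86 in c-Myc tumors 1 to 4 and 8.86, 8.92, 8.67, 9.07 and 9.92 in normal glands 1 to 5. The groups lay more than 3 log2 units apart, with a difference of 4.39 (SE 0.55, 21.0-fold, limma adjusted p = 1.3e-07). Among the other MMTV models the highest Myc values were 9.57 in MMTV-H-Ras, 9.24 in MMTV-Her2/neu, 10.46 in MMTV-PymT and 10.74 in MMTV-Wnt1 tumors, and the difference from their mean was 4.03 (SE 0.45, 16.3-fold, limma adjusted p = 1.29e-07). The array does not separate RNA of the transgene from RNA of the endogenous gene, and their shares were not tested.

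Of the 12 measured members of the Myc network, 3 were higher than in normal gland (Myc, Mxi1 and Mnt) and 2 lower (Mlx and Mlxipl). The shares over all genes were 17.1% higher and 14.6% lower. Max, the shared partner, averaged 6.00 in c-Myc tumors and 5.98 in normal gland. Mlxipl, the glucose-responsive factor known as ChREBP, was at the floor of 2.06 to 2.12 in all 4 tumors, against 6.19, 8.52, 8.77, 5.11 and 4.15 in the 5 glands (difference -4.45, SE 0.66, limma adjusted p = 2.74e-06). It was as low in the other MMTV models, whose means were 2.08 to 2.12. Its partner Mlx measured 6.98, 6.08, 6.25 and 6.39 in c-Myc tumors against 7.15, 8.30, 7.69, 8.05 and 8.07 in glands, with no overlap (difference -1.43, limma adjusted p = 0.0202). That call was lost without c-Myc tumor 2 (adjusted p = 0.0542) or without c-Myc tumor 3 (adjusted p = 0.0512), and with the gene's other probe set (adjusted p = 0.3).

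**Figure D1:**
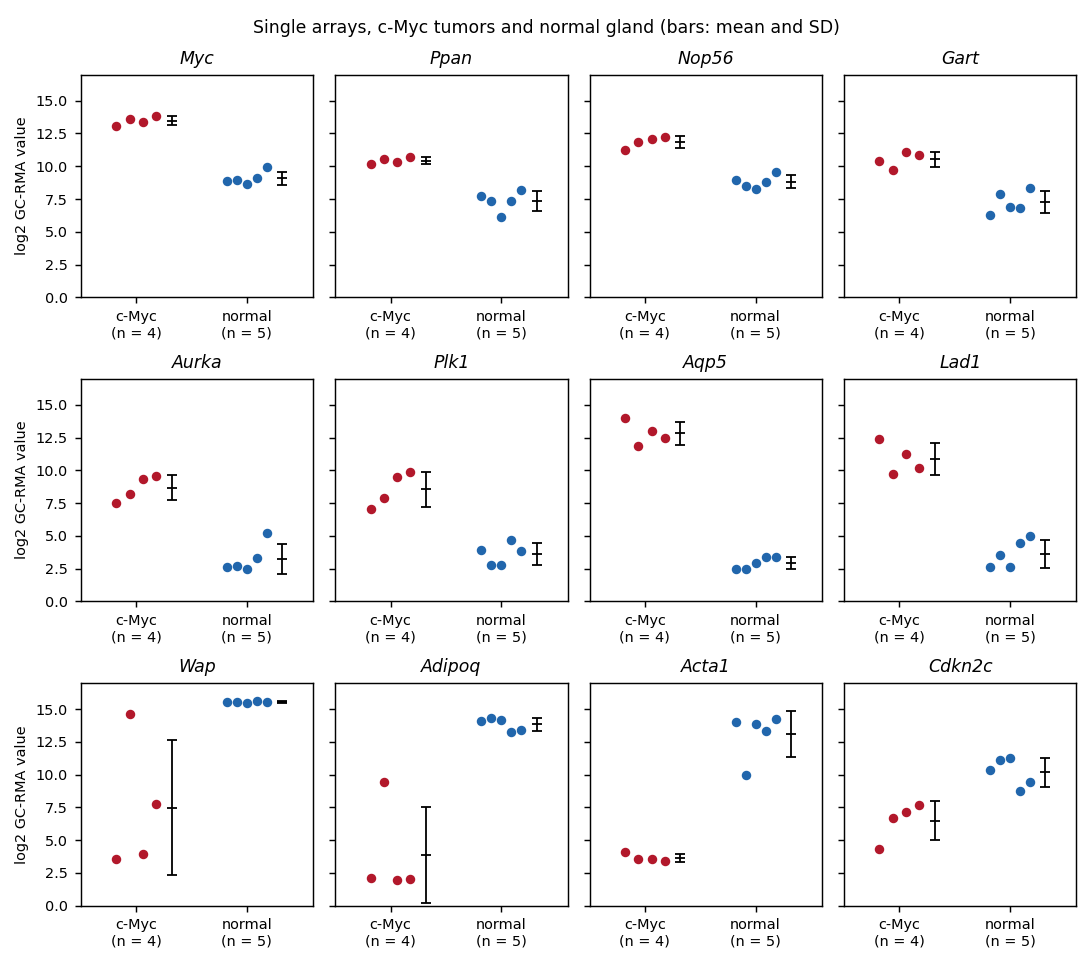
Log2 GC-RMA values of 12 genes in each c-Myc tumor (left, red, n = 4) and each normal gland (right, blue, n = 5), in replicate order, with the mean and SD as black bars. Myc, Ppan, Nop56, Gart, Aurka, Plk1, Aqp5 and Lad1 were higher in every tumor than in any gland, Wap, Adipoq, Acta1 and Cdkn2c were lower, and c-Myc tumor 2 lay far above the other tumors for Wap and Adipoq.

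Genes that build ribosomes rose together. Of 35 measured genes of ribosome biogenesis and the nucleolus, 31 were higher in c-Myc tumors than in normal gland and 0 lower, with a median difference of 1.73 against 0.10 over all genes. The same list set c-Myc tumors apart from the other MMTV tumors, with 30 of 35 higher, 0 lower and a median difference of 1.19 against -0.02 over all genes. The mean over the list was 9.95, 10.22, 10.55 and 10.65 in the 4 c-Myc tumors and 8.26, 8.65, 8.26, 8.35 and 9.09 in the 5 glands, and the 20 other MMTV tumors reached at most 9.59. So the lowest c-Myc tumor lay above every gland and every other MMTV tumor, although a p53-/- transplant tumor reached 10.28. Across the alternatives tried the count against gland was 28 to 32, and that against the other MMTV tumors 21 to 33, with the lowest value without c-Myc tumor 4.

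The largest differences in the list were those of Ppan, Nop56 and Polr1a. Ppan, a factor of large-subunit assembly, measured 10.15, 10.56, 10.32 and 10.69 in c-Myc tumors, against 7.75, 7.36, 6.13, 7.38 and 8.16 in glands. The groups did not overlap, and the difference was 3.08 (SE 0.33, 8.43-fold, limma adjusted p = 7.15e-09). It was also above the other MMTV tumors by 2.14 (SE 0.27, limma adjusted p = 1.19e-06), whose highest value was 9.40 in a MMTV-PymT tumor. Nop56, a core protein of the box C/D particles that methylate ribosomal RNA, measured 11.22, 11.88, 12.06 and 12.20 in c-Myc tumors and 8.92, 8.50, 8.27, 8.77 and 9.59 in glands. All 4 tumors lay above all 5 glands (difference 3.03, SE 0.39, limma adjusted p = 2.28e-07), and the difference from the other MMTV tumors was 1.98 (SE 0.32, limma adjusted p = 4.65e-05). Polr1a, the largest subunit of RNA polymerase I, which transcribes ribosomal RNA, measured 8.96, 7.92, 9.91 and 9.54 in c-Myc tumors and 6.02, 6.38, 5.99, 5.89 and 6.37 in glands. Its lowest tumor, c-Myc tumor 2, was still above the highest gland (difference 2.95, SE 0.52, limma adjusted p = 3.53e-05), and the difference from the other MMTV tumors was 1.89 (SE 0.42, limma adjusted p = 0.00229). The other, dimmer probe set of Polr1a was not called against gland (difference 0.60, adjusted p = 0.326).

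Ncl encodes nucleolin, an abundant nucleolar protein. It measured 13.60, 13.66, 14.02 and 14.27 in c-Myc tumors and 12.23, 12.16, 12.10, 11.96 and 12.35 in glands, a difference of 1.73 (SE 0.27, limma adjusted p = 5.24e-06) between groups that did not overlap. Against the other MMTV tumors it was higher by 0.89 (SE 0.22, limma adjusted p = 0.00517). Of the 4 probe sets for Ncl, 3 were called against gland, and the fourth gave a difference of 0.88 with an adjusted p of 0.0847.

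Since Myc binds E-boxes, the CACGTG palindrome was searched for in promoter windows of 300 bases, which run from 250 bases before to 50 bases from the start of a gene, in RefSeq sequence of build GRCm38.p6. Windows were matched by symbol for 7523 of the 9329 genes. The motif reads the same on both strands, so each match counted once. It occurred in 96 of 574 windows (16.7%) of genes higher in c-Myc tumors than in the other MMTV tumors, in 62 of 724 (8.56%) of genes lower and in 788 of 8430 (9.35%) of genes not called. Against normal gland it occurred in 209 of 1656 windows (12.6%) of genes higher, in 133 of 1443 (9.22%) of genes lower and in 604 of 6629 (9.11%) of genes not called. Over all genes tested the share was 946 of 9728 windows (9.72%), and 7.15% over all 32851 windows available. Mean GC content differed little between these sets, at 61.9%, 60.2% and 60.3% for genes higher, lower and not called against the other MMTV tumors. These shares are descriptions of the windows and no test was made of them.

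Ribosome biogenesis genes had the motif in 7 of 37 windows (18.9%), whereas mitosis genes had it in 1 of 22 (4.55%) and DNA replication genes in 2 of 25 (8.0%). The stretches of 7 ribosome biogenesis genes are shown because these genes carry the E-box in their window, with the motif in capitals and all bases 5′ to 3′ on the strand of the gene.
Nop2: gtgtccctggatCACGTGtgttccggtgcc
Pes1: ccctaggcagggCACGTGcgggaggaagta
Wdr43: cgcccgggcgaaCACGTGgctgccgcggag
Utp4: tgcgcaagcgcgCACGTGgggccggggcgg
Tsr1: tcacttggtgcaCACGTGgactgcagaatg
Mybbp1a: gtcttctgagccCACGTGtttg
Utp20: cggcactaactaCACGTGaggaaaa
They lie at chr6:125131811-125131840 (plus strand) for Nop2, chr11:3963965-3963994 (plus) for Pes1, chr17:71616220-71616249 (plus) for Wdr43, chr8:106893643-106893672 (plus) for Utp4, chr11:74898092-74898121 (plus) for Tsr1, chr11:72441355-72441376 (plus) for Mybbp1a and chr10:88826765-88826789 (minus) for Utp20, the last 2 cut short by the end of the window. The motif began 60 bases before the start of Nop2, and at or within 40 bases after the start of the other 6 genes. These 7 genes, chosen for the motif and not for their values, were higher than in normal gland by 1.89 (Nop2), 1.67 (Pes1), 1.69 (Wdr43), 1.64 (Utp4), 1.85 (Tsr1), 2.05 (Mybbp1a) and 2.82 (Utp20) log2 units, and all were called in both comparisons. They differed little from the list as a whole, in which 31 of 35 genes were called against gland.

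**Figure D2:**
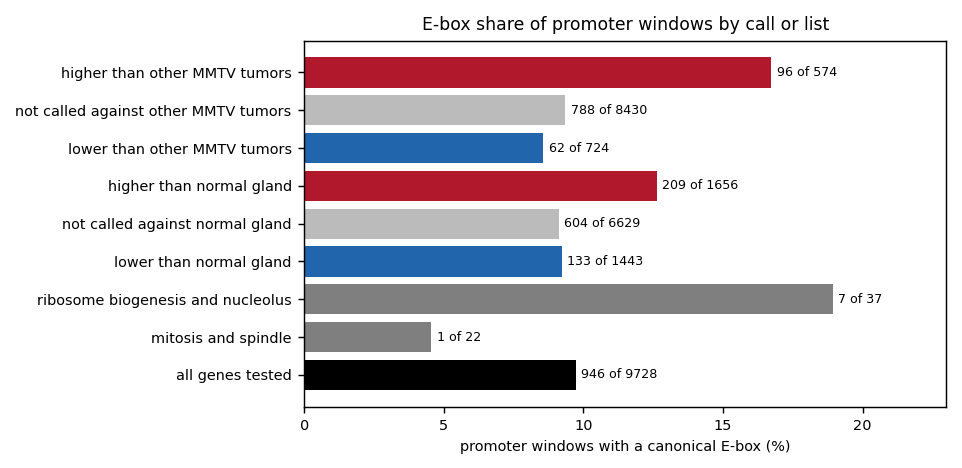
Share of 300-base promoter windows (x axis, in percent) that hold the canonical E-box, by call in either comparison, for 2 gene lists and for all genes tested, with the number of windows beside each bar. Genes higher in c-Myc tumors than in the other MMTV tumors had it in 16.7% of windows against 9.72% for all genes tested.

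The enzymes that supply nucleotides, one-carbon units and polyamines followed the same direction. Of 21 measured, 13 were higher than in normal gland and 0 lower (median difference 1.82), and 11 were higher than in the other MMTV tumors and 0 lower (median 1.05). Tk1, the thymidine kinase of S phase, had the largest difference from gland, with 7.42, 7.03, 9.85 and 9.91 in c-Myc tumors and 5.53, 3.86, 2.28, 4.33 and 4.45 in glands (difference 4.46, SE 0.98, limma adjusted p = 0.000516). Mthfd2, a mitochondrial folate enzyme, measured 7.97, 8.95, 9.29 and 7.23 in c-Myc tumors and 4.60, 3.65, 3.86, 5.04 and 5.03 in glands (difference 3.93, SE 0.83, limma adjusted p = 0.000367). Gart, which catalyses several steps of purine synthesis, measured 10.37, 9.73, 11.09 and 10.87 in c-Myc tumors and 6.28, 7.90, 6.89, 6.84 and 8.37 in glands (difference 3.26, SE 0.49, limma adjusted p = 2.88e-06). None of these 3 genes overlapped between the groups, and of the 3 Gart alone was also called against the other MMTV tumors (difference 1.74, SE 0.40, limma adjusted p = 0.0027).

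Odc1, the rate-limiting enzyme of polyamine synthesis and a classical Myc target, differed from this pattern. It measured 12.45, 11.93, 12.01 and 12.21 in c-Myc tumors and 11.55, 11.76, 10.62, 13.06 and 12.14 in normal glands, which overlapped (difference 0.33, SE 0.49, limma adjusted p = 0.657). Against the other MMTV tumors it was higher by 1.90 (SE 0.40, 3.73-fold, limma adjusted p = 0.00116), with model means of 9.65 in MMTV-H-Ras, 9.97 in MMTV-Her2/neu, 10.03 in MMTV-PymT and 11.36 in MMTV-Wnt1. All 3 of its probe sets were called against the other MMTV tumors and 0 of the 3 against gland.

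**Figure D3:**
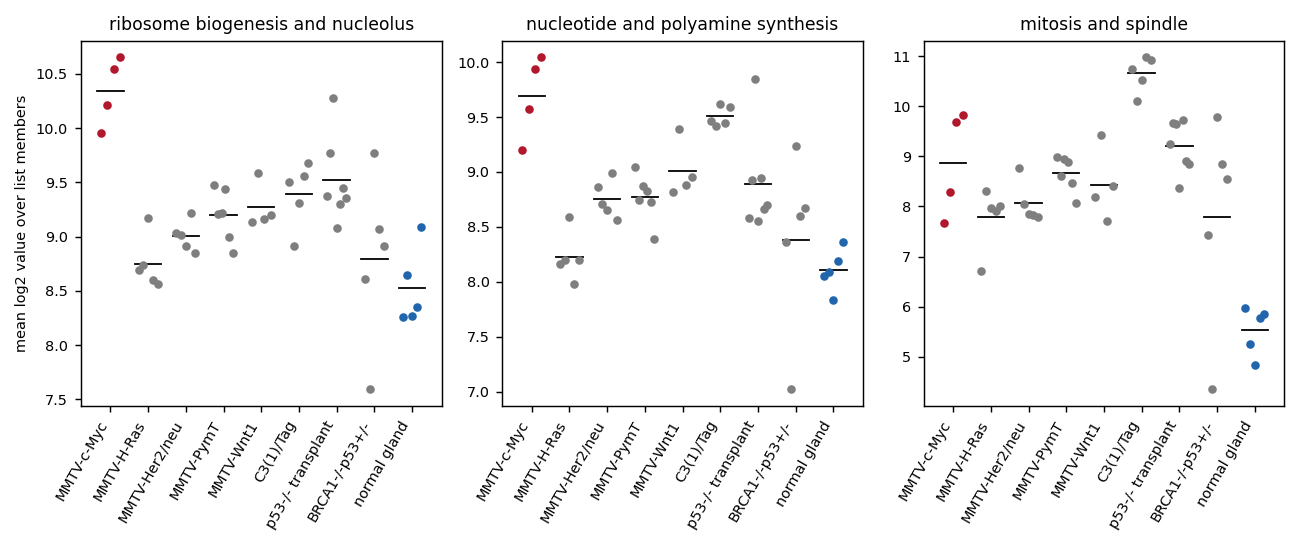
Mean log2 value over the measured members of 3 gene lists in each of the 46 arrays (points), by group, with group means as lines, c-Myc tumors in red, the other tumor models in grey and normal gland in blue. The 4 c-Myc tumors lie between 9.95 and 10.65 for ribosome biogenesis, above the 20 other MMTV tumors and the 5 glands, whereas for mitosis they lie between 7.66 and 9.82, within the range of other tumors.

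Protein folding and translation showed smaller steps. Of 18 chaperones and mitochondrial import proteins, 9 were higher than in gland and 13 higher than in the other MMTV tumors, with 0 lower in either, and the count of 13 became 8 without c-Myc tumor 4 and 6 with the probe set of largest variance. Subunits of the cytosolic chaperonin CCT led the list against gland. Cct3 measured 12.85, 12.99, 13.10 and 13.05 in c-Myc tumors and 11.48, 11.49, 11.20, 11.21 and 11.95 in glands (difference 1.53, SE 0.25, limma adjusted p = 1.14e-05). Cct7 (difference 1.47, limma adjusted p = 8.51e-06) and Cct5 (1.32, limma adjusted p = 0.000535) likewise had no overlap between tumors and glands. Of 17 translation factors and tRNA synthetases, 7 were higher than in gland (4 without c-Myc tumor 3) and 5 higher than in the other MMTV tumors (3 without c-Myc tumor 2, 3 or 4), with 0 lower. Wars, the tryptophanyl-tRNA synthetase, measured 10.06, 9.19, 9.96 and 9.81 in c-Myc tumors and 8.25, 8.57, 8.45, 8.32 and 8.06 in glands (difference 1.43, SE 0.35, limma adjusted p = 0.0015), but another of its probe sets was not called (difference 0.64, adjusted p = 0.268). The leucyl and glutamyl-prolyl synthetases Lars and Eprs differed by 1.31 (limma adjusted p = 0.00222) and 1.08 (limma adjusted p = 0.00813). Eprs overlapped between the groups and was not called in the 9 arrays alone (adjusted p = 0.0514).

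Cell cycle genes separated tumors from gland far more than they separated c-Myc tumors from other tumors. Of 27 mitosis and spindle genes, 25 were higher than in normal gland and 0 lower (median difference 3.33), whereas 2 were higher than in the other MMTV tumors (median 0.62), or 1 without c-Myc tumor 3 or 4 and 4 after quantile normalization, after centring or in the compared arrays alone. Of 24 DNA replication genes, 20 were higher than in gland and 0 lower (median 2.84), against 2 higher and 1 lower in the comparison with other MMTV tumors (median 0.44). Those counts were 1 higher without c-Myc tumor 2 or 4, 0 lower without c-Myc tumor 1 or 2 or without MMTV-Wnt1 tumor 2, and 0 to 4 higher over all alternatives. Aurka, the mitotic kinase of the spindle poles, measured 7.55, 8.22, 9.33 and 9.58 in c-Myc tumors and 2.60, 2.69, 2.45, 3.28 and 5.20 in glands (difference 5.43, SE 0.86, limma adjusted p = 7.2e-06). Plk1, another mitotic kinase, measured 7.06, 7.87, 9.46 and 9.91 in c-Myc tumors and 3.94, 2.78, 2.81, 4.69 and 3.88 in glands (difference 4.96, SE 0.88, limma adjusted p = 4e-05). In both, c-Myc tumors 3 and 4 were higher than c-Myc tumors 1 and 2, and all 4 were above every gland. The same held for the list means of mitosis, at 7.66, 8.28, 9.69 and 9.82 in c-Myc tumors 1 to 4 against 4.84 to 5.97 in glands. Ccnb2, a mitotic cyclin, differed by 4.86 (limma adjusted p = 4.13e-05), and among replication genes Rfc5, a clamp loader subunit, by 4.46 (limma adjusted p = 1.2e-05), Mcm5 by 3.69 (limma adjusted p = 0.000887) and Mcm2 by 3.61 (limma adjusted p = 5.83e-05), the last 2 subunits of the replicative helicase. None of these 6 genes was called against the other MMTV tumors, where their differences were 1.23, 1.06, 0.09, 0.72, 0.42 and 0.75.

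Regulators of G1 were mixed, with 4 of 19 higher than in gland (1 without c-Myc tumor 3) and 4 lower. Over all genes the shares were 17.1% higher and 14.6% lower. Cdkn2c, which encodes the CDK4 and CDK6 inhibitor p18, measured 4.32, 6.71, 7.13 and 7.71 in c-Myc tumors and 10.36, 11.11, 11.29, 8.75 and 9.41 in glands, with no overlap (difference -3.72, SE 0.56, 13.1-fold lower, limma adjusted p = 3.07e-06). It was also lower than in the other MMTV tumors, whose lowest value was 7.81 in a MMTV-H-Ras tumor (difference -2.53, SE 0.45, limma adjusted p = 0.000196). Cdkn1c, the inhibitor p57, measured 3.92, 3.31, 4.81 and 2.22 in c-Myc tumors and 5.27, 6.64, 7.41, 6.32 and 6.01 in glands (difference -2.77, limma adjusted p = 0.00211). Cdkn2b, the inhibitor p15, split the tumors, at 10.86 and 11.34 in c-Myc tumors 1 and 3 and 5.60 and 4.32 in c-Myc tumors 2 and 4, against 4.06 to 5.88 in glands. Its difference of 3.46 (limma adjusted p = 0.00438) was no longer called without c-Myc tumor 3 (adjusted p = 0.0599) or in a fit of the 9 arrays alone (adjusted p = 0.1). Cdkn2a, which encodes p16 and p19Arf, was not called (5.95, 2.13, 4.11 and 2.37 in c-Myc tumors, 2.20 to 2.54 in glands, limma adjusted p = 0.395). Ccnd1, cyclin D1, was likewise not called (12.62, 8.72, 12.43 and 9.78 in c-Myc tumors, 9.33 to 10.33 in glands, difference 1.10, limma adjusted p = 0.228), although without c-Myc tumor 2 its adjusted p was 0.0424, and its other 2 probe sets gave differences of 2.09 (adjusted p = 0.0425) and 2.42 (0.0179).

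Genes of the p53 response and apoptosis showed no common direction, with 3 of 19 higher and 3 lower (1 higher without c-Myc tumor 1 or 3, 5 without c-Myc tumor 4). These counts were near the shares over all genes, 17.1% higher and 14.6% lower. Gadd45a, a stress-induced growth arrest gene, measured 10.37, 7.62, 11.08 and 7.91 in c-Myc tumors and 6.50, 3.23, 6.15, 6.00 and 5.98 in glands (difference 3.67, SE 0.64, limma adjusted p = 3.44e-05, and 3.087 without normal gland 2). Bcl2l11, the pro-apoptotic protein Bim, had a difference of 1.72 (limma adjusted p = 0.0116) with overlap between the groups, which was lost without c-Myc tumor 1 (adjusted p = 0.0787) or 3 (adjusted p = 0.0591) and in the 9 arrays alone (adjusted p = 0.0778). Its other probe sets disagreed. Differences of 2.02 and 2.63 were called (limma adjusted p = 0.0103 and 0.00281), and differences of 0.36 and 0.19 were not (adjusted p = 0.669 and 0.775). Phlda3, a p53 target, had 10.41, 6.94, 10.60 and 4.91 in c-Myc tumors and 9.28 to 11.55 in glands (difference -2.23, limma adjusted p = 0.0225), and was not called without c-Myc tumor 2 (adjusted p = 0.0932), c-Myc tumor 4 (adjusted p = 0.245), gland 2 (adjusted p = 0.0523) or gland 3 (adjusted p = 0.0659), or in the 9 arrays alone (adjusted p = 0.175).

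**Figure D4:**
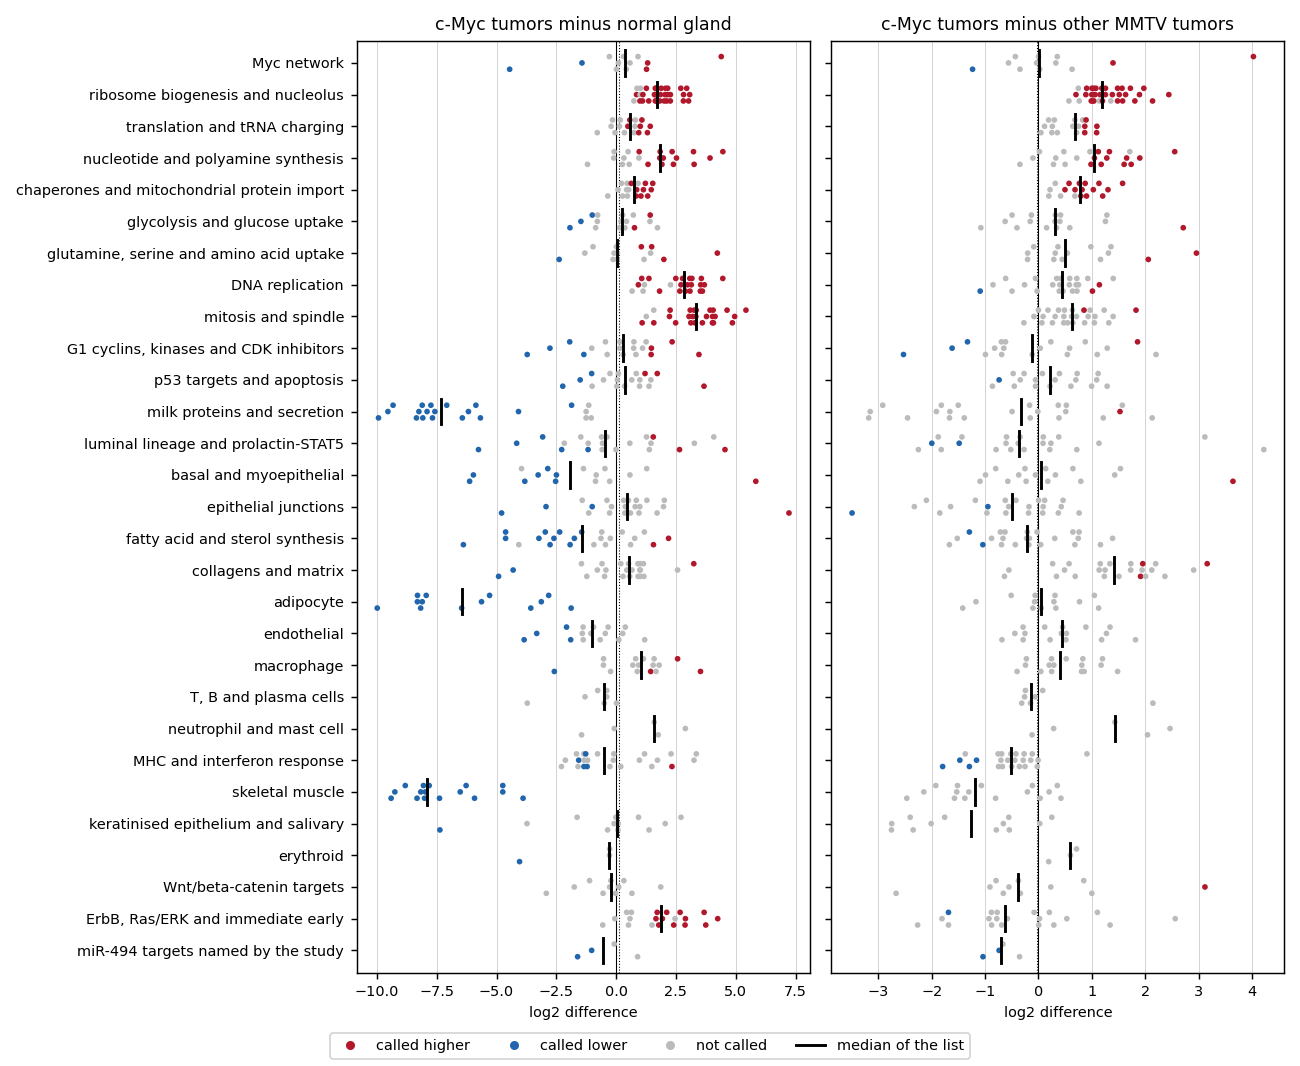
Log2 difference of each measured member (points) of 29 gene lists, c-Myc tumors minus normal gland on the left and minus other MMTV tumors on the right, coloured by call, with the median of each list as a black bar and the median of all genes as a dotted line (0.10 and -0.02). Ribosome biogenesis lies to the right in both panels (medians 1.73 and 1.19), whereas mitosis (3.33 and 0.62), milk proteins (-7.33 and -0.33) and adipocyte genes (-6.46 and 0.05) are displaced mainly on the left.

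Of 22 milk protein and secretion genes, 18 were lower than in normal gland and 0 higher (median difference -7.33), a count that stayed 18 without c-Myc tumor 2. Wap, whey acidic protein, measured 3.54, 14.63, 3.92 and 7.76 in c-Myc tumors and 15.57, 15.57, 15.48, 15.65 and 15.56 in glands (difference -8.11, SE 1.66, limma adjusted p = 0.000246, and -10.49 without c-Myc tumor 2). Csn2, beta-casein, measured 2.93, 15.12, 2.23 and 12.90 in c-Myc tumors and 15.21 to 15.50 in glands. Both were below all glands in every tumor, but c-Myc tumor 2 came within 1 log2 unit of them. The difference for Csn2 of -7.08 (SE 2.37, limma adjusted p = 0.0194) was lost without c-Myc tumor 1 (adjusted p = 0.116), without c-Myc tumor 3 (adjusted p = 0.131) and in the 9 arrays alone (adjusted p = 0.0682).

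Among other milk genes Glycam1 and Fabp3 also spread widely, whereas Cel and Csn1s2b were low in all 4 tumors. Glycam1 measured 2.45, 13.60, 2.35 and 7.16 in c-Myc tumors and 15.51 to 15.90 in glands (difference -9.32, SE 2.14, limma adjusted p = 0.000864). Fabp3, the fatty acid binding protein of muscle and lactating gland, measured 2.30, 11.85, 2.72 and 3.33 in c-Myc tumors and 14.13 to 14.97 in glands (difference -9.54, SE 1.43, limma adjusted p = 3.2e-06). Cel, the bile salt-stimulated lipase of milk, was low in all 4 tumors, at 2.07, 3.91, 2.04 and 2.13, against 11.92 to 13.42 in glands (difference -9.93, SE 0.70, limma adjusted p = 8.56e-14). Csn1s2b, another casein, measured 2.58, 3.78, 2.28 and 2.78 in c-Myc tumors and 9.83 to 14.14 in glands (difference -9.00, limma adjusted p = 3.28e-12). C-Myc tumor 2 was the highest of the 4 tumors for each of these genes, and without it the differences were -11.73 for Glycam1, -11.81 for Fabp3, -10.39 for Cel and -9.31 for Csn1s2b, all still called. Set against the other MMTV tumors, 0 of the 22 genes were lower and 1 was higher, whereas without c-Myc tumor 2 the counts were 4 lower and 0 higher, and without c-Myc tumor 1 or 3 also 0 higher.

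Luminal identity genes were mixed. Krt8 and Krt18 encode the paired keratins of luminal cells, and Krt8 measured 14.61, 13.78, 13.26 and 12.92 in c-Myc tumors and 12.26, 11.63, 11.54, 12.02 and 12.98 in glands, where gland 5 overlapped with the tumors (difference 1.55, SE 0.45, limma adjusted p = 0.00746), and it was not called without c-Myc tumor 1 (adjusted p = 0.0531). Krt18 measured 14.71, 13.76, 12.75 and 12.78 in c-Myc tumors against 11.48 to 12.43 in glands (difference 1.46, SE 0.59, limma adjusted p = 0.0564), and was called without c-Myc tumor 3 (adjusted p = 0.0471) or 4 (adjusted p = 0.045), with the replicate block (adjusted p = 0.0442), after quantile normalization (adjusted p = 0.0402) and in the 9 arrays alone (adjusted p = 0.0362). Of 22 genes of the luminal lineage and prolactin-Stat5 signalling, 3 were higher and 5 lower, against 17.1% higher and 14.6% lower over all genes. The counts were 1 higher and 3 lower without c-Myc tumor 1, 3 lower without c-Myc tumor 3, and 5 higher without c-Myc tumor 4 or with the replicate block. Cish, a cytokine-inducible target of Stat5, measured 6.83, 5.83, 6.31 and 7.97 in c-Myc tumors and 10.67, 10.67, 10.59, 11.18 and 11.35 in glands (difference -4.16, SE 0.53, limma adjusted p = 2.05e-07). It was lower than in the other MMTV tumors too (3.99-fold lower, SE 0.44 on the log2 scale, limma adjusted p = 0.00175). Muc1, a mucin of the apical surface, measured 3.61, 7.11, 2.39 and 3.58 in c-Myc tumors and 8.23 to 11.82 in glands (difference -5.75, limma adjusted p = 1.45e-06, and -6.735 without c-Myc tumor 2). Krt7 differed by 4.55 (limma adjusted p = 0.00775), with overlap, and lost its call without c-Myc tumor 1 (adjusted p = 0.065).

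Of 16 basal and myoepithelial genes 7 were lower than in gland, 1 was higher and 8 were not called, and 3 were lower without c-Myc tumor 4. Cnn1, calponin, measured 2.04, 2.15, 2.08 and 2.04 in c-Myc tumors and 6.96, 8.02, 7.11, 9.35 and 9.56 in glands (difference -6.12, SE 1.08, limma adjusted p = 3.79e-05). Myh11, smooth muscle myosin, measured 2.45, 5.80, 2.46 and 2.33 in c-Myc tumors and 8.65 to 10.04 in glands (difference -5.97, limma adjusted p = 4.6e-05, and -6.81 without c-Myc tumor 2). The basal keratins varied among tumors, with Krt5 at 2.94, 9.09, 4.51 and 3.53 in c-Myc tumors and 8.31 to 9.52 in glands (limma adjusted p = 0.0604, but 0.0161 without c-Myc tumor 2, 0.027 with the replicate block and 0.0285 in the 9 arrays alone) and Krt14 at 6.73, 10.89, 7.80 and 6.90 in c-Myc tumors and 8.87 to 10.55 in glands (limma adjusted p = 0.493). The exception was Lgals7, galectin-7 of stratified epithelium, at 11.85, 9.33, 11.61 and 6.59 in c-Myc tumors and 4.60, 4.61, 3.70, 3.29 and 3.84 in glands (difference 5.84, SE 1.35, limma adjusted p = 0.000928). It was above the other MMTV tumors by 3.65 (limma adjusted p = 0.0235), a call lost without c-Myc tumor 1 (adjusted p = 0.124) or 3 (adjusted p = 0.122).

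Among 22 junction genes 1 was higher (4 in the 9 arrays alone) and 3 lower than in gland, against 17.1% higher and 14.6% lower over all genes. Lad1, a protein of epithelial anchoring filaments, measured 12.39, 9.72, 11.26 and 10.15 in c-Myc tumors and 2.66, 3.52, 2.60, 4.48 and 5.01 in glands (difference 7.23, SE 1.19, limma adjusted p = 1.34e-05). Cldn8, a tight junction claudin, measured 5.04, 7.82, 6.87 and 8.15 in c-Myc tumors and 10.77 to 12.99 in glands (difference -4.79, limma adjusted p = 0.00733), and Cldn5, the claudin best known from endothelium, differed by -2.93 (limma adjusted p = 0.000677).

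All 13 adipocyte genes were lower than in gland (median difference -6.46), 12 of them without c-Myc tumor 2. Adipoq, adiponectin, measured 2.09, 9.40, 1.96 and 2.01 in c-Myc tumors and 14.07, 14.35, 14.17, 13.22 and 13.44 in glands (difference -9.99, SE 1.96, limma adjusted p = 0.00015). Lipe, hormone-sensitive lipase, measured 2.18, 3.42, 2.16 and 2.20 in c-Myc tumors and 9.23 to 12.22 in glands (difference -8.31, limma adjusted p = 6.29e-10), and Car3 had 3.34, 13.22, 2.15 and 7.47 in c-Myc tumors and at least 14.63 in glands (difference -8.30, limma adjusted p = 0.00195). Without c-Myc tumor 2 the differences were -11.83 for Adipoq, -8.62 for Lipe and -10.53 for Car3, all called. Averaged over the list, c-Myc tumor 2 averaged 8.10, the other c-Myc tumors 4.09 to 5.23 and the glands 10.97 to 12.46. Set against the other MMTV tumors, 0 of the 13 adipocyte genes were called in either direction.

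All 16 skeletal muscle genes were lower than in gland (median difference -7.89), and all 16 remained lower without normal gland 2. The list averaged 3.12 to 3.49 in the 4 c-Myc tumors, 5.45 in normal gland 2 and 10.58 to 12.83 in the other 4 glands. Acta1, skeletal actin, measured 4.13, 3.54, 3.58 and 3.43 in c-Myc tumors and 14.01, 9.98, 13.83, 13.31 and 14.24 in glands (difference -9.41, SE 1.96, limma adjusted p = 0.000308). Tnnc2 and Tnnt3, fast troponins, were at 2.06 to 2.39 in c-Myc tumors, against 5.78 and 5.71 in normal gland 2 and at least 11.85 in the other glands (differences -9.25 and -8.81, limma adjusted p = 0.000666 and 0.000194). Without normal gland 2 the differences were -10.18 for Acta1, -10.64 for Tnnc2 and -10.17 for Tnnt3, all called. The part of adipocyte and muscle RNA in other differences from gland was not tested.

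**Figure D5:**
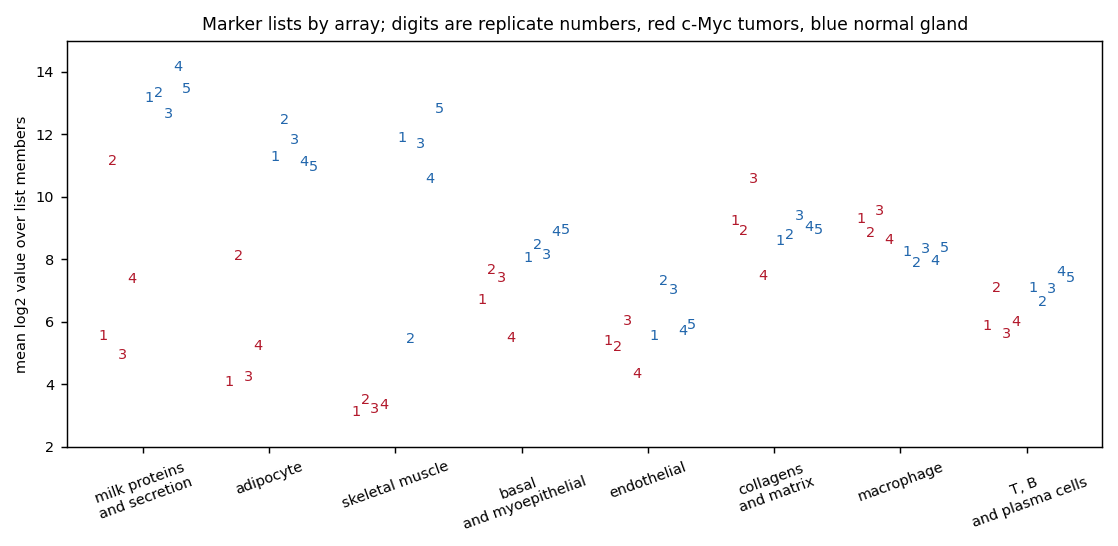
Mean log2 value over the members of 8 gene lists (x axis) in each c-Myc tumor (red digits, left of each pair) and each normal gland (blue digits, right), where the digit is the replicate number. C-Myc tumor 2 is the highest c-Myc tumor for milk proteins (11.16) and adipocyte genes (8.10), and normal gland 2 is the lowest gland for skeletal muscle (5.45).

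Of 23 fatty acid and sterol synthesis genes 11 were lower than in gland (12 without c-Myc tumor 2), 2 were higher (1 without c-Myc tumor 1 or 4 or without gland 1 or 4) and 10 were not called, with a median of -1.44. Dgat2, which forms triglycerides, measured 5.07, 7.66, 5.61 and 5.06 in c-Myc tumors and 10.85 to 13.63 in glands (difference -6.38, SE 1.04, limma adjusted p = 1.19e-05). Scd1, a fatty acid desaturase, measured 10.31, 13.98, 8.72 and 9.74 in c-Myc tumors and 15.04 to 15.47 in glands (difference -4.62, SE 0.82, limma adjusted p = 4.17e-05). Acaca, acetyl-CoA carboxylase, was near the floor at 2.10 to 2.33 in c-Myc tumors and 4.09 to 8.99 in glands (difference -4.62, limma adjusted p = 9.71e-11). In none of these 3 genes did the groups overlap. Without c-Myc tumor 2 the differences were -6.987 for Dgat2, -5.715 for Scd1 and -4.672 for Acaca, all still called. Adipocytes and secretory epithelium both use this pathway, and the adipocyte list (median -6.46) and the milk list (median -7.33) were lower than in gland too. The part of either cell type in these differences was not tested.

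Other cell types differed less. Among 16 endothelial genes 4 were lower than in gland and 0 higher (2 lower without c-Myc tumor 4), against 14.6% lower and 17.1% higher over all genes. Tek, the angiopoietin receptor, measured 3.51, 3.53, 3.54 and 3.39 in c-Myc tumors and 7.20, 7.98, 7.79, 6.61 and 7.12 in glands (difference -3.85, SE 0.55, limma adjusted p = 1.32e-06). Sox17 was also lower (difference -3.32, limma adjusted p = 3.53e-05). Pecam1, the general endothelial marker, measured 2.36, 3.04, 3.09 and 2.18 in c-Myc tumors and 3.04, 7.50, 6.57, 3.10 and 3.51 in glands (difference -2.07, limma adjusted p = 0.0344), a call lost without c-Myc tumor 1 (adjusted p = 0.0784) or 4 (adjusted p = 0.0833), without gland 2 (adjusted p = 0.165) or 3 (adjusted p = 0.123) and in the 9 arrays alone (adjusted p = 0.142). Of 16 macrophage genes 3 were higher and 1 lower, against 17.1% higher and 14.6% lower over all genes, and 9 were higher in a fit of the 9 arrays alone. In 7 of the 16 every tumor lay above every gland, against 14.02% over all genes. The macrophage list averaged 8.61 to 9.54 in c-Myc tumors and 7.87 to 8.36 in glands. Cd68 measured 8.91, 8.16, 9.01 and 9.69 in c-Myc tumors and 4.43, 5.05, 6.40, 5.37 and 5.82 in glands (difference 3.53, SE 0.87, limma adjusted p = 0.00183), Ms4a7 was higher by 2.57 (limma adjusted p = 0.0048), and the scavenger receptor Cd163 was lower (difference -2.58, limma adjusted p = 0.0158). Ptprc, the pan-leukocyte antigen CD45, did not reach the threshold, at 8.63, 8.79, 9.09 and 7.62 in c-Myc tumors and 8.53 to 9.62 in glands (difference -0.39, SE 0.80, limma adjusted p = 0.76).

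Of 24 matrix and fibroblast genes 1 was higher and 2 lower than in gland, against 17.1% higher and 14.6% lower over all genes. The median difference of the list was 0.54, and it averaged 7.49 to 10.57 in c-Myc tumors and 8.58 to 9.39 in glands. Against the other MMTV tumors 3 were higher and 0 lower (median 1.42), with 6.11% and 7.01% over all genes. That count of 3 ran from 0 to 6 over the alternatives. Decorin, Dcn, measured 2.99, 9.81, 10.36 and 6.08 in c-Myc tumors and 11.54 to 12.63 in glands (difference -4.91, limma adjusted p = 0.0188), and lumican, Lum, 4.16, 6.67, 9.35 and 5.11 in c-Myc tumors and 10.39 to 10.95 in glands (difference -4.31, limma adjusted p = 0.0134). Both calls were lost without c-Myc tumor 1 (adjusted p = 0.131 and 0.066), and that of Dcn also without c-Myc tumor 4 (adjusted p = 0.055). Fbln2, fibulin-2, was higher in c-Myc tumors 1 and 3 (12.23 and 12.32) than in c-Myc tumors 2 and 4 (8.12 and 7.38), with 5.86 to 7.81 in glands (difference 3.25, limma adjusted p = 0.0347). It was not called without c-Myc tumor 1 (adjusted p = 0.151) or 3 (adjusted p = 0.157), nor without gland 1 (adjusted p = 0.0715), 2 (adjusted p = 0.0507) or 4 (adjusted p = 0.0593), nor in the 9 arrays alone (adjusted p = 0.0506).

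Fuel use gave no common direction. Of 16 glycolysis genes 2 were higher and 3 lower than in gland, against 17.1% higher and 14.6% lower over all genes. The counts ran from 0 to 3 higher and 1 to 3 lower over the alternatives. Among the lower genes Pfkm, the phosphofructokinase of muscle, measured 8.39, 7.99, 8.62 and 8.15 in c-Myc tumors and 10.54, 9.15, 10.79, 9.62 and 10.98 in glands (difference -1.93, limma adjusted p = 0.00944). Slc16a1, the lactate transporter MCT1, had 10.20, 10.40, 11.95 and 11.71 in c-Myc tumors and 11.95 to 12.86 in glands (difference -1.47, limma adjusted p = 0.0477). That call was lost without c-Myc tumor 1 (adjusted p = 0.166) or 2 (adjusted p = 0.131) or without gland 2, 3, 4 or 5 (adjusted p = 0.0714 to 0.0876), without the filter on low values (adjusted p = 0.0528) and after quantile normalization (adjusted p = 0.0803). Slc16a1 was instead higher than in the other MMTV tumors, by 2.71 (SE 0.47, 6.56-fold, limma adjusted p = 0.000133), with model means of 6.27 in MMTV-H-Ras, 7.17 in MMTV-Her2/neu, 9.93 in MMTV-PymT and 10.03 in MMTV-Wnt1. Hk1, hexokinase 1, was higher than in gland by 1.42 (limma adjusted p = 0.00551), but its other probe set, with a difference of 1.89, was not called (adjusted p = 0.166). Of 14 amino acid genes 4 were higher and 1 lower than in gland, against the same shares of 17.1% and 14.6% over all genes. Slc38a1, a glutamine transporter, measured 10.32, 8.07, 9.37 and 9.22 in c-Myc tumors and 5.89, 4.49, 3.56, 4.35 and 6.78 in glands (difference 4.23, SE 0.94, limma adjusted p = 0.000621), Psat1 of serine synthesis was higher by 2.00 (limma adjusted p = 0.0173, and 0.0779 without c-Myc tumor 2 or 0.0551 without gland 3), and glutamine synthetase, Glul, was lower (difference -2.38, limma adjusted p = 0.00603, and -3.03 without c-Myc tumor 2).

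Of 20 genes of the ErbB, Ras/ERK and immediate early list 12 were higher than in gland and 0 lower (median difference 1.86), a count of 7 without c-Myc tumor 1. The list averaged 9.63, 7.50, 9.51 and 7.79 in c-Myc tumors 1 to 4 and 6.49 to 6.97 in glands, so that c-Myc tumors 1 and 3 stood about 2 log2 units above the other pair. Egr1, an immediate early factor, measured 13.18, 10.89, 12.37 and 9.64 in c-Myc tumors and 8.19, 8.27, 6.79, 7.66 and 8.30 in glands (difference 3.68, SE 0.53, limma adjusted p = 1.76e-06). Etv4, an ETS factor induced by ERK, measured 8.24, 5.60, 8.84 and 6.97 in c-Myc tumors and 3.10, 3.97, 3.09, 4.05 and 4.12 in glands (difference 3.75, SE 0.58, limma adjusted p = 4.87e-06). Hbegf, an EGF receptor ligand, spread from 5.34 to 13.30 in c-Myc tumors against 3.26 to 5.81 in glands (difference 4.25, limma adjusted p = 0.00609, 0.0779 without c-Myc tumor 1 and 0.053 in the 9 arrays alone). Set against the other MMTV tumors, 0 of the 20 genes were higher and 1 was lower, with 3 lower without c-Myc tumor 3 and 0 lower without c-Myc tumor 2 or 4.

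Of the 10 genes with the largest rise from gland, 8 were not called against the other MMTV tumors. Aqp5, a water channel of secretory epithelia, measured 13.97, 11.84, 13.05 and 12.46 in c-Myc tumors and 2.50, 2.51, 2.97, 3.38 and 3.38 in glands (difference 9.88, SE 0.80, limma adjusted p = 3.28e-12), and its difference from the other MMTV tumors was 0.13. Car12, a carbonic anhydrase of the cell surface, measured 8.93, 9.27, 9.32 and 10.67 in c-Myc tumors and 1.99 to 3.22 in glands (difference 6.95, limma adjusted p = 4.83e-08). St6galnac4, a sialyltransferase, was higher by 6.69 (limma adjusted p = 1.03e-06), and the collagen genes Col9a3 and Col11a1 by 6.53 (limma adjusted p = 0.00343) and 5.96 (limma adjusted p = 0.00282). Other probe sets of these collagen genes were not called, with differences of 2.36 (adjusted p = 0.194) and -0.40 (adjusted p = 0.593) for Col9a3 and 2.10 (adjusted p = 0.241) for Col11a1. Psrc1, a microtubule protein of the spindle, measured 11.73, 9.27, 11.64 and 10.46 in c-Myc tumors and 3.12 to 4.21 in glands (difference 7.08, limma adjusted p = 4.48e-05), and Wfdc2, a secreted protease inhibitor, was higher by 5.99 (limma adjusted p = 0.000145). Differences from the other MMTV tumors were 2.71 for Psrc1 and 2.72 for Wfdc2, uncalled (limma adjusted p = 0.0777 and 0.0535). The c-Myc median was above those of all the other MMTV models for both. Wfdc2 averaged 3.22 in MMTV-Her2/neu tumors and 3.86 in glands. The other such differences were 0.76 for Lad1, 0.36 for Col9a3, -0.26 for St6galnac4, -0.64 for Col11a1 and -1.33 for Car12. Of the 1598 genes higher than in gland, 400 were also higher than in the other MMTV tumors, 1190 were not called there and 8 were lower.

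A smaller set marked the c-Myc tumors among the MMTV models. Ccnb1ip1, a ubiquitin ligase that acts in meiotic recombination, measured 7.83, 8.53, 8.47 and 10.16 in c-Myc tumors. It was at 2.19 to 2.44 in glands, and its highest value in the other MMTV tumors was 6.82 (difference from them 5.31, SE 0.72, limma adjusted p = 3.13e-06, and from gland 6.46, limma adjusted p = 6.11e-07). Utf1, a chromatin factor of undifferentiated embryonic cells, was high in c-Myc tumors 1 and 4 (11.74 and 9.68) and lower in c-Myc tumors 2 and 3 (4.18 and 3.69), and lay at 2.20 to 2.21 in all glands (difference from the other MMTV tumors 4.59, SE 0.66, limma adjusted p = 7.59e-06). MMTV-H-Ras tumors ran from 2.19 to 6.11 for Utf1, and the medians of the other MMTV models were 2.19 to 2.24. Prtn3, proteinase 3 of myeloid granules, measured 9.69, 10.39, 7.37 and 6.66 in c-Myc tumors and 2.35 to 2.70 in glands (difference from the other MMTV tumors 4.05, limma adjusted p = 0.00852, and 0.0635 without c-Myc tumor 2). It overlapped with MMTV-PymT tumors, which reached 9.46.

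Il17b, a cytokine of the interleukin 17 family, measured 10.50, 8.62, 11.40 and 9.12 in c-Myc tumors and 6.74, 6.78, 4.82, 8.85 and 8.37 in glands. Those groups overlapped (difference 2.79, limma adjusted p = 0.0616, but 0.0488 without c-Myc tumor 2, 0.0411 without gland 4 and 0.0421 in the 9 arrays alone), while the difference from the other MMTV tumors was 4.75 (SE 0.95, limma adjusted p = 0.000724), with a single MMTV-Wnt1 tumor as high as 12.31. Cdk18, a cyclin-dependent kinase of the PCTAIRE group, measured 7.37, 8.71, 8.36 and 7.70 in c-Myc tumors, against 2.95 to 5.91 in all 20 other MMTV tumors (difference 3.82, SE 0.68, 14.1-fold, limma adjusted p = 0.000162). Glands ran from 4.50 to 7.53, and the highest of them overlapped with the c-Myc tumors.

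Below the other MMTV tumors stood Lrrc26, an auxiliary subunit of potassium channels, at 3.86, 5.09, 3.94 and 3.82 in c-Myc tumors, against model medians of 8.87 to 10.70 (difference -5.35, SE 0.87, 40.9-fold lower, limma adjusted p = 5.14e-05). Chad, a cartilage matrix protein, measured 2.94, 2.96, 3.83 and 3.01 in c-Myc tumors against model medians of 5.98 to 9.71 (difference -4.78, SE 0.88, limma adjusted p = 0.000261). For both genes, c-Myc tumors were near gland values of 3.99 to 7.27 and 2.97 to 5.33. Cldn10, a paracellular channel claudin (difference -4.63, limma adjusted p = 0.00271), and Car8 (difference -4.70, limma adjusted p = 0.00283) were also lower, with a c-Myc range of 4.18 to 8.24 and 2.38 to 6.42. For Cldn10, c-Myc tumor 2 at 8.24 was above the MMTV-Wnt1 mean of 6.77. Gjb2, connexin 26, and Apoc1, an apolipoprotein, were lower on average than both the other MMTV tumors (differences -4.81 and -4.98, limma adjusted p = 0.00642 and 0.00645) and gland (differences -7.29 and -5.71, limma adjusted p = 0.000244 and 0.00393). Gjb2 measured 4.14, 9.27, 2.78 and 3.74 in c-Myc tumors, where c-Myc tumor 2 was above the MMTV-Her2/neu mean of 7.85. Apoc1 measured 2.37, 7.74, 9.20 and 3.19, where c-Myc tumor 3 was above the MMTV-Wnt1 mean of 8.87. The call of Gjb2 against the other MMTV tumors was lost without c-Myc tumor 3 (adjusted p = 0.0538), and that of Apoc1 without c-Myc tumor 1 (adjusted p = 0.0681) or 4 (adjusted p = 0.0532).

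Antigen presentation genes varied widely among the tumors. The MHC and interferon list averaged 10.16, 8.31, 6.20 and 5.59 in c-Myc tumors 1 to 4 and 7.29 to 8.03 in glands, with c-Myc tumor 1 above and c-Myc tumors 3 and 4 below all glands. Of its 24 genes 1 was higher than in gland (0 without c-Myc tumor 1 or 2, 3 without c-Myc tumor 4) and 4 lower (1 in the 9 arrays alone). Over all genes 17.1% were higher and 14.6% lower. Against the other MMTV tumors 0 were higher and 4 lower (2 lower without c-Myc tumor 3), with 6.11% and 7.01% over all genes. H2-K1, a class I heavy chain, measured 14.09, 12.44, 11.31 and 11.52 in c-Myc tumors and 13.44, 14.10, 13.90, 13.25 and 13.72 in glands (difference -1.34, SE 0.37, limma adjusted p = 0.00446, and 0.0913 in the 9 arrays alone). Its difference from the other MMTV tumors was -1.29 (limma adjusted p = 0.00319), which was not called without c-Myc tumor 3 (adjusted p = 0.057). Oas1a and Tap2 were called against gland (differences 2.33 and -1.56, limma adjusted p = 0.0421 and 0.0409), but not with the replicate block (adjusted p = 0.0554 and 0.0522) or in the 9 arrays alone (adjusted p = 0.162 and 0.166). Oas1a was also not called without c-Myc tumor 1 (adjusted p = 0.337) or 2 (adjusted p = 0.133), without any single gland (adjusted p = 0.0511 to 0.104) and after quantile normalization (adjusted p = 0.0504), and Tap2 without c-Myc tumor 3 (adjusted p = 0.153) or 4 (adjusted p = 0.263) or without gland 2, 3 or 5 (adjusted p = 0.0551 to 0.0994).

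From a longer list of predicted miR-494 targets, the study singled out 4 genes as deregulated in cancer. Of these 4, chosen with these samples in hand, 2 were lower than in gland and 0 higher, so the list is not independent evidence of its direction. In a mammary tumor cell line that over-expressed miR-494, the study found reduced RNA of Birc4 (Xiap). It detected no change in RNA of Bmi1 or Ptpn12 there. Bmi1, a Polycomb protein, measured 7.53, 8.99, 10.26 and 9.61 in c-Myc tumors and 10.54, 10.68, 10.95, 10.62 and 10.75 in glands (difference -1.61, SE 0.37, limma adjusted p = 0.000922). Xiap, an inhibitor of caspases, measured 9.75, 10.17, 10.14 and 9.23 in c-Myc tumors and 10.80, 10.85, 10.55, 11.01 and 11.01 in glands (difference -1.02, SE 0.23, limma adjusted p = 0.000778). In neither gene did tumors and glands overlap. Xiap was not called with its probe set of largest variance (adjusted p = 0.543). Differences from the other MMTV tumors were -1.04 for Bmi1 (limma adjusted p = 0.0189, lost without c-Myc tumor 1, adjusted p = 0.297, or 2, adjusted p = 0.0614) and -0.74 for Xiap (limma adjusted p = 0.00762, lost without c-Myc tumor 4, adjusted p = 0.0901, and with the probe set of largest variance, adjusted p = 0.157).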

How the data were processed

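RNA of 4 MMTV-c-Myc tumors, 5 normal glands and 37 other tumors was hybridized to Affymetrix mouse arrays, with 1 array per tumor or gland. The authors collected the scans in GCOS, computed GC-RMA values in Partek and kept probe sets that MAS5 called present or marginal in at least 3 samples. The deposited values are on the log2 scale. Versions of these tools and scan dates are not given in the sources used here. The table held 18586 probe sets. Those over 4 in at least 3 arrays and with 1 gene in the platform annotation were kept, and the probe set with the highest mean over 46 arrays was taken for each of 9329 genes. Symbols followed RefSeq (GRCm38.p6).

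limma 3.58.1 (lmFit and eBayes, R 4.3.3) was fitted to all 46 arrays in 9 groups, with Benjamini-Hochberg adjustment over 9329 genes. The other MMTV tumors entered as the equal-weighted mean of 4 models. The fit was tested on simulated data. Both comparisons use the same c-Myc arrays. Arrays carry no read depth, so their number limits the precision. Alternatives covered filters, scaling, probe set choice, the prior, the arrays fitted, a replicate block and each array left out. Named genes were Myc, the 10 largest differences from gland in each direction among called genes whose groups do not overlap, the 6 largest per direction from the other MMTV tumors with the c-Myc median beyond all 4 model medians, the 3 called members with the largest difference from gland in each list, and 13 genes at any value; genes outside this rule were chosen after their values were seen. The comparison and gene lists were chosen with earlier results of these data known.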

Additional observations from a re-analysis of the deposited data

Results flagged for a closer look

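In 210 sets of 4 or 5 values (105 named genes in c-Myc tumors and in glands), 25 had an array set apart from its group by Dixon's criterion, which chance alone meets in about 1 in 20 sets. In 10 of them c-Myc tumor 2 was the highest tumor. These were Adipoq (9.40, the other tumors at most 2.09), Fabp3 (11.85, at most 3.33), Glul (12.27, at most 9.92), Alas2 (8.84, at most 3.87), Pck1 (6.60, at most 2.90), Myh11 (5.80, at most 2.46), Cldn10 (8.24, at most 4.65), Lrrc26 (5.09, at most 3.94), Cel (3.91, at most 2.13) and Lipe (3.42, at most 2.20). C-Myc tumor 3 was the highest for Cldn5 (6.06) and Chad (3.83) and the lowest for Cox8b (2.92).

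Normal gland 2 was the lowest gland for Acta1 (9.98), Tnnc2 (5.78), Tnnt3 (5.71), Gadd45a (3.23) and Oas1a (5.05). Among the other glands, gland 1 stood apart for Chad (5.33), Ms4a7 (5.84) and Utf1 (2.21, at the floor), gland 3 for Cdkn2b (5.88) and St6galnac4 (2.09), and gland 4 for Mcm5 (2.67) and Wfdc2 (5.89).

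For Cdk18 every c-Myc tumor was above the gland mean of 6.36 and all 20 other MMTV tumors were below it, and the difference between the c-Myc and the other MMTV tumors was 3.82 (limma adjusted p = 0.000162). The c-Myc tumors overlapped with the glands, and their difference from gland of 1.68 was not called (limma adjusted p = 0.12).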

How the results depend on the processing

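The counts of genes at 2-fold or more against normal gland kept within 1.5 times under every alternative, at 1080 to 1472 higher and 1071 to 1188 lower when single arrays were left out. Against the other MMTV tumors the same held except without c-Myc tumor 3, where 270 genes were higher against 423 (range without single arrays 270 to 441 higher and 336 to 551 lower). The only named difference that changed sign was that of Chad from gland, -0.35 and not called, which was 0.0927 without normal gland 1 (-0.569 to 0.0927 without single arrays). Of 92 named genes called against gland, 72 kept their call in every alternative, and of 31 called against the other MMTV tumors, 18 did. With the replicate block, 1388 genes were higher and 1252 lower than in gland, and 2499 of the 2571 calls were shared, while 837 were called against the other MMTV tumors, 800 of them shared with the 901. Replicate numbers are labels of different animals, and same-numbered tumors and glands did not deviate together (r = -0.10 to 0.05 over 4 pairs, against -0.08 to 0.10 over 16 other pairs). Genes near the floor of about 2 limit how well a low level can be measured.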
